A study of Mus musculus with 7 samples.

Results

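The genes described here are 10 core macrophage genes, chosen by symbol from the 56854 gene identifiers shared by all count files: Csf1 and its receptor Csf1r, and Adgre1, Cd68, Aif1, Cx3cr1, Mertk, Ms4a7, Fcgr1 and Fcgr3. All 10 matched 1 identifier each and all 10 passed the filter on low counts. They were measured by RNA sequencing of whole shoulder joints from mice whose left supraspinatus tendon had been repaired 2 weeks earlier. The supraspinatus is a tendon of the rotator cuff. Wild-type mice gave 3 libraries and Tnc-/- mice, which lack the matrix glycoprotein Tenascin C, gave 4, all after the same repair. There was no unoperated group, and strain, age and the design of the Tnc allele are not given in the sources used here. The study asked how loss of Tenascin C alters healing after cuff repair.

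Macrophages clear dead cells and matrix debris after injury and release factors that steer fibroblasts. They and their monocyte precursors depend on CSF1R, a receptor tyrosine kinase, which is activated by either of its ligands, CSF1 and IL34. In a joint with attached bone, osteoclasts and marrow monocytes also carry CSF1R, so these genes read the whole mononuclear phagocyte lineage. In bulk RNA, fewer macrophages and less RNA per macrophage cannot be told apart.

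The libraries held 13464057 to 18503833 gene counts in wild type and 19250322 to 28191101 in Tnc-/-. Levels are in CPM, counts scaled to a common library total with TMM factors, edgeR's trimmed mean normalisation. Tnc itself was at 290.0 to 434 CPM in wild type and at 33.1 to 54.6 CPM in Tnc-/-. Markers of the joint were present. The 7 tendon and cartilage markers summed to 3144 CPM or more in every library, although the tendon factor Scx was listed at 0 in all 7 libraries. Mkx among them was called lower, averaging 11.8 CPM in wild type and 6.24 CPM in Tnc-/-. Of 6 fibroblast markers Lum was called lower, and their summed CPM overlapped between the groups. The 6 skeletal muscle markers summed to 17810 to 23470 CPM in wild type and to 25560 to 37620 CPM in Tnc-/-, without overlap, and Myh4 and Ryr1 among them were called higher. The part of this tissue difference in the results was not tested. The wild-type libraries were not alike: receptor genes of smell and pheromone sensing, which a joint should not express, summed to 88.5 CPM in wild-type library 1, to 1390 and 975 CPM in libraries 2 and 3, and to 36.3 to 43.6 CPM in Tnc-/-. The wild-type files list 56980 identifiers and the Tnc-/- files 56941, with 126 and 87 found in 1 genotype alone, so genotype and counting run are confounded and cannot be told apart. The labels do not say how the mice were raised or batched, so p-values measure only the spread between these samples.

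Of the core macrophage genes, Cx3cr1, the receptor for the chemokine fractalkine, was lower in the repaired joints of Tnc-/- mice, and the other 9 did not pass the test. Of the 10 genes, 1 had an adjusted p under 0.05 (edgeR's quasi-likelihood test with Benjamini-Hochberg adjustment over all genes), where 29.0% of the 17791 genes tested passed, 10.3% higher and 18.7% lower. The members' share was thus below that of all genes. At an unadjusted p under 0.05 there were 3 (Csf1, Cx3cr1 and Fcgr3), against 42.3% of all genes. The median log2 fold change was 0.24 over the 10 genes, with 7 above 0, and -8.9e-04 over all genes tested. The groups did not overlap in 1 gene that was higher (Csf1; 17.7% of all genes) and 1 that was lower (Cx3cr1; 17.4% of all genes).

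**Figure D1:**
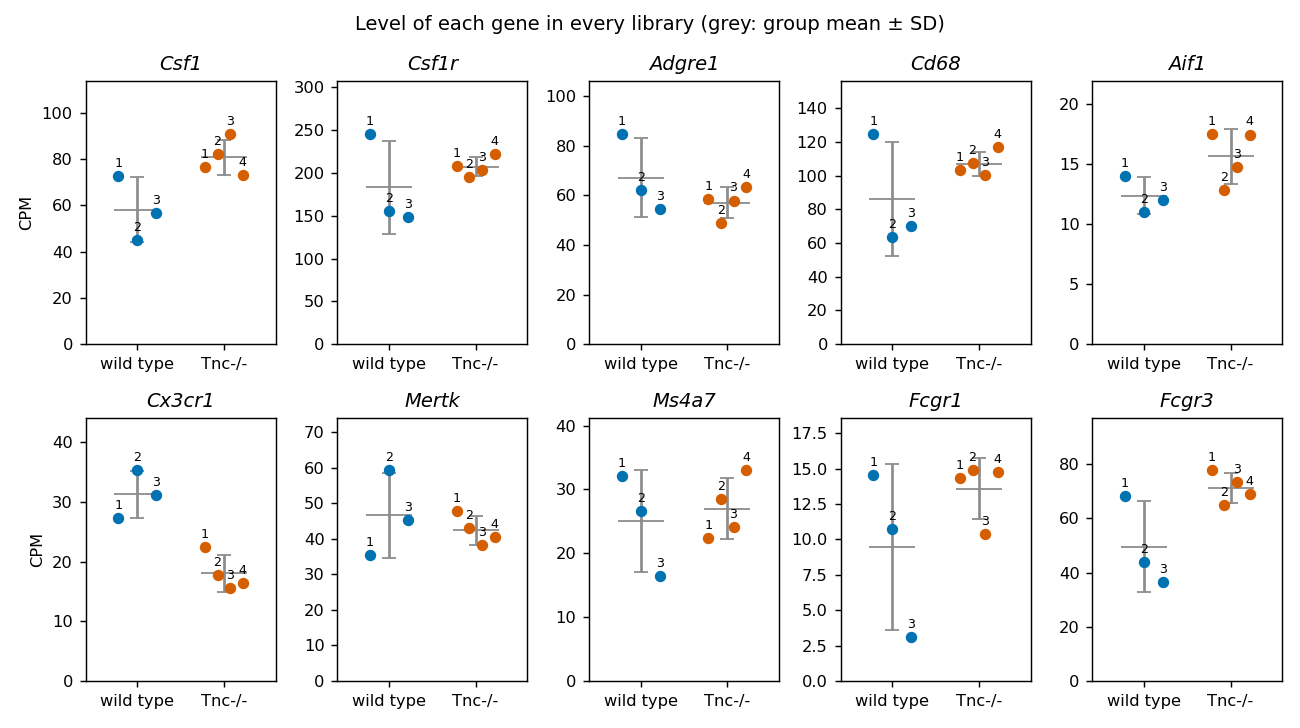
Level of the 10 genes in CPM (vertical axes, from 0) in the 3 wild-type (blue) and 4 Tnc-/- libraries (orange), numbered by replicate, with group means and SD in grey. Wild-type library 1 lies above libraries 2 and 3 in 8 of the 10 genes, and only for Csf1 and Cx3cr1 do the groups not overlap.

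The spread lay mainly within wild type. In 8 of the 10 genes wild-type library 1 exceeded the mean of libraries 2 and 3 (50.6% of all tested genes did so), from 1.22 times for Aif1 to 2.10 times for Fcgr1. Cx3cr1 and Mertk were the exceptions, at 0.821 and 0.679 times. The median coefficient of variation of the 10 genes was 27.6% in wild type and 10.2% in Tnc-/-, beside 30.1% and 16.0% over all tested genes. The mean of the Tnc-/- libraries was above that of wild-type libraries 2 and 3 in 7 genes, but above wild-type library 1 in 4. Which wild-type libraries entered therefore set the direction of several genes. Without wild-type library 1, 6 of the 10 genes were called (64.2% of all genes tested in that fit): Csf1, Csf1r, Cd68, Fcgr1 and Fcgr3 higher and Cx3cr1 lower. Without wild-type libraries 2 and 3 none was called (4.45% of all genes), and the median of the 10 was -0.16. In that fit the lone wild-type library is assumed to vary as the Tnc-/- libraries do. Adgre1 was at -0.58 (SE 0.17) in it and Cx3cr1 at -0.60 (SE 0.22). With the background level as a covariate none was called either (2.28% of all genes), and the median of the 10 was -0.32. Adgre1 was at -0.725 (SE 0.22) in that fit. The background level was higher in every wild-type library (88.5 CPM or more) than in any Tnc-/- library (43.6 CPM or less). This covariate is therefore largely confounded with genotype.

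Cx3cr1 was again the 1 member called under most other settings. These were DESeq2 (39.3% of all genes), limma voom (5.64%), DESeq2's size factors (28.3%), library totals (30.4%) and upper quartile scaling (27.6%) in edgeR, no filter on low counts (26.3%), at least 10 counts in every library (24.3%) and thinning to the smallest library (26.8%). The same held without wild-type library 2 (15.7%) and without Tnc-/- library 1 (16.6%), 2 (17.6%) or 4 (16.5%). None was called without wild-type library 3 (12.3%), without Tnc-/- library 3 (14.5%), with the replicate number as a block (10.9%) or under DESeq2 with Bonferroni adjustment (7.87%).

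**Figure D2:**
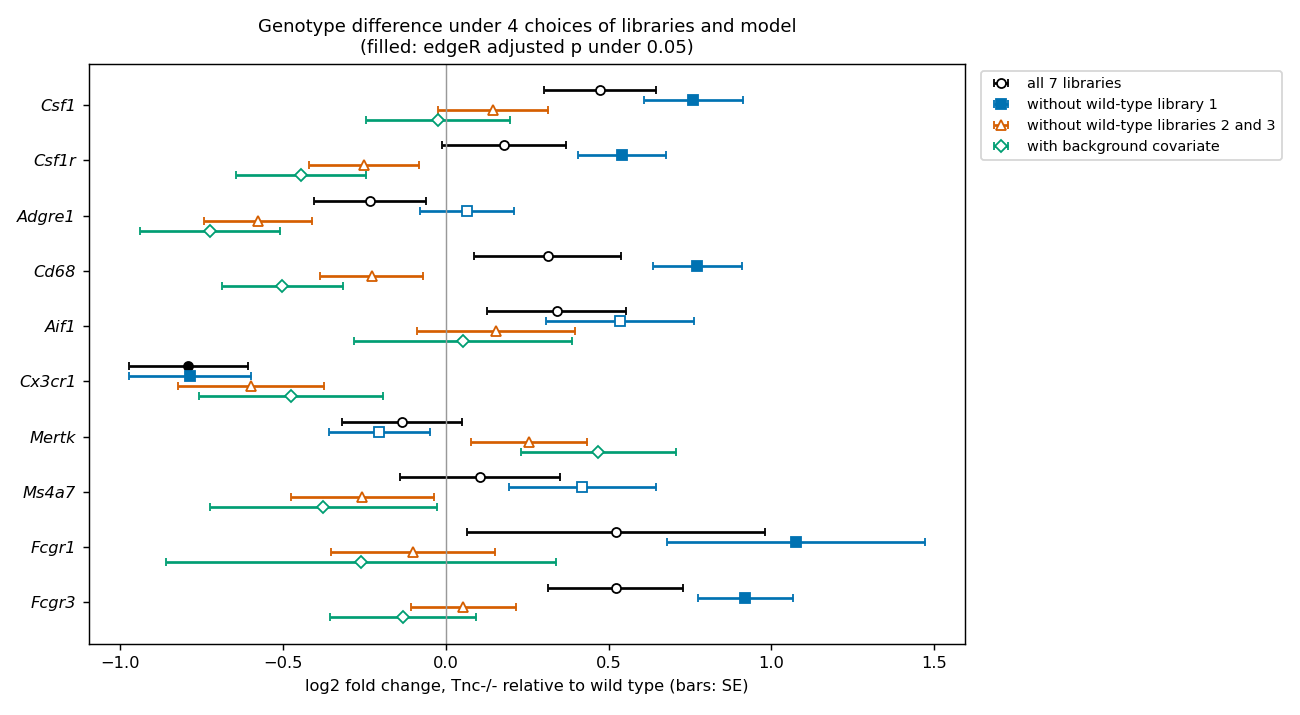
Log2 fold change of each gene, Tnc-/- relative to wild type (horizontal axis, bars SE), from edgeR with all libraries, without wild-type library 1, without wild-type libraries 2 and 3, and with the background level as a covariate. Filled symbols mark an adjusted p under 0.05. Cx3cr1 and Aif1 keep their side of 0 in all 4, and the other 8 genes cross it in at least 1.

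Csf1 encodes the main ligand, made largely by fibroblasts, endothelium and bone cells. In replicate order, the wild-type libraries held 72.7, 45.0 and 56.5 CPM of it and the Tnc-/- libraries 76.6, 81.9, 90.9 and 73.2 CPM. Every Tnc-/- value exceeded every wild-type value, although wild-type library 1 came close to the lowest of them. The log2 fold change was 0.47 (SE 0.17), and its adjusted p of 0.0698 (edgeR) missed the threshold. Without wild-type library 1 it was 0.76 (SE 0.15; adjusted p = 7.0e-04), and without library 2 it was 0.31 (SE 0.16; 0.202). Without wild-type libraries 2 and 3 it was 0.14 (SE 0.17; adjusted p = 0.631), and with the background covariate -0.025 (SE 0.22; adjusted p = 0.968).

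Csf1r was at 246, 156 and 148 CPM in wild type and at 208, 196, 204 and 222 CPM in Tnc-/-. The Tnc-/- libraries lay together, between wild-type library 1 and the other wild-type libraries. The log2 fold change was 0.18 (SE 0.19; edgeR, adjusted p = 0.515). Without wild-type library 1 it was 0.54 (SE 0.14; adjusted p = 0.00334), without library 2 0.060 and without library 3 0.049. It turned to -0.25 (SE 0.17) without wild-type libraries 2 and 3 and to -0.029 when libraries were scaled by their totals, a scaling that moved the median of all genes to -0.22. In GENCODE M21, 15.1% of the Csf1r exon bases overlap exons of Hmgxb3 on the opposite strand, and the strand setting of the counting is not given in the sources used here, so reads from those bases are uncertain.

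The ratio of ligand to receptor does not depend on how libraries are scaled. There were 29.6, 28.9 and 38.1 Csf1 counts per 100 Csf1r counts in wild type and 36.8, 41.9, 44.6 and 33.0 in Tnc-/-. The groups overlapped through wild-type library 3 and Tnc-/- libraries 1 and 4. The log2 ratio was -1.65 ± 0.22 (SD, n = 3) in wild type and -1.36 ± 0.19 (SD, n = 4) in Tnc-/-, a difference of 0.28 (exact two-sided permutation test, p = 0.171, where the smallest possible is 0.0571). Of the 3 ratios tested in this way (the others are Cd68 to Csf1r and Fcgr1 to Fcgr3), none reached it, and the Benjamini-Hochberg adjusted p was 0.257 for Csf1 and for Cd68 against Csf1r and 0.743 for Fcgr1 against Fcgr3.

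Il34, the other CSF1R ligand, was at 12.7, 49.8 and 35.7 CPM in wild type and at 15.4 to 18.04 CPM in Tnc-/-. Wild-type library 1 was the lowest of the 7 and libraries 2 and 3 the highest, the order in which the background genes ranked the wild-type libraries. Its log2 fold change was -0.99 (SE 0.38; edgeR, adjusted p = 0.0783), and it was called lower under DESeq2 with Benjamini-Hochberg adjustment, with library totals in edgeR and without wild-type library 1.

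Adgre1 encodes F4/80, the surface receptor long used to identify mouse macrophages. It was at 84.8, 62.1 and 54.3 CPM in wild type and at 58.5, 48.6, 57.9 and 63.2 CPM in Tnc-/-. The groups overlapped, and only wild-type library 1 stood clear of the Tnc-/- range. Tnc-/- differed by -0.23 in log2 fold change (SE 0.17; edgeR, adjusted p = 0.336). Its direction rested on that library: without it the value was 0.065 (SE 0.15), and without wild-type libraries 2 and 3 it was -0.58 (SE 0.17; adjusted p = 0.0665).

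Cd68, a lysosomal membrane glycoprotein of phagocytes, was at 125, 63.6 and 69.9 CPM in wild type and at 103, 107, 100.4 and 117 CPM in Tnc-/-. Tnc-/- again lay between wild-type library 1 and the others, at a fold change of 0.31 in log2 units (SE 0.23; edgeR, adjusted p = 0.328). Without wild-type library 1 it was called higher at 0.77 (SE 0.14; adjusted p = 2.6e-04). It was 0.12 without library 2, 0.19 without library 3 and -0.23 (SE 0.16) without both. The log2 ratio of Cd68 to Csf1r was -1.12 ± 0.16 (SD, n = 3) in wild type and -0.96 ± 0.074 (SD, n = 4) in Tnc-/-, a difference of 0.16 (exact two-sided permutation test, p = 0.171). It was 0.075 without wild-type library 2 and 0.022 without libraries 2 and 3.

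Aif1 encodes IBA1, an actin-binding protein of phagocytes. It was at 14.0, 11.02 and 12.01 CPM in wild type and at 17.5, 12.8, 14.7 and 17.5 CPM in Tnc-/-, where Tnc-/- library 2 fell below wild-type library 1. The log2 fold change was 0.34 (SE 0.21; edgeR, adjusted p = 0.258) and stayed above 0 in all 19 alternatives, between 0.052 and 0.54. Ms4a7, a membrane protein of tissue macrophages, was at 32.1, 26.6 and 16.5 CPM in wild type and at 22.3, 28.5, 24.1 and 33.0 CPM in Tnc-/-. Its groups overlapped almost fully, and its log2 fold change of 0.11 (SE 0.25; adjusted p = 0.774) changed sign in 5 of the 19 alternatives.

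Cx3cr1 marks resident macrophages and patrolling monocytes, and was the 1 member called. It was at 27.3, 35.3 and 31.2 CPM in wild type and at 22.5, 17.8, 15.6 and 16.4 CPM in Tnc-/-. The highest Tnc-/- value was below the lowest wild-type value, that of library 1. The mean fell from 31.3 ± 4.01 CPM (SD, n = 3) to 18.04 ± 3.09 CPM (SD, n = 4), or 57.7% of wild type, which is -0.79 on the log2 scale (SE 0.18; edgeR, adjusted p = 0.0147). The value stayed below 0 in all 19 alternatives, between -1.02 and -0.48, and was past the threshold in 13.

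The call was nevertheless narrow. It passed only just under limma voom (adjusted p = 0.04996). In edgeR it passed only just without wild-type library 2 (adjusted p = 0.0482) and without Tnc-/- library 2 (0.0455) or 4 (0.0484). It was lost without wild-type library 3 (-0.79, adjusted p = 0.0535, edgeR) and without Tnc-/- library 3 (-0.73, 0.0548). It was also lost without wild-type libraries 2 and 3 together (-0.60, SE 0.22, adjusted p = 0.131), with the replicate number as a block (-0.76, SE 0.25, adjusted p = 0.0888), and with the background covariate (-0.48, SE 0.28, 0.4). Long genes were lower in Tnc-/- across the whole table: the median log2 fold change was -0.60 in the 1544 tested genes spanning over 100 and up to 200 kb, where 43.7% were at or below the value of Cx3cr1, and it was 0.12 in the 6162 spanning over 10 and up to 35 kb, where 17.7% were. The longer genes also stood higher in wild-type libraries 2 and 3 than in library 1, by a median of 0.73 on the log2 scale in the former class and -0.17 in the latter. Cx3cr1 spans 168 kb in GENCODE M21, through 1 long transcript model, and 19.6 kb in RefSeq. The other members spanning over 100 kb, Adgre1 (125 kb) and Mertk (104 kb), were the only others with a log2 fold change below 0. Relative to the mean of wild-type libraries 2 and 3, library 1 held 0.821 times as much Cx3cr1, 0.679 times as much Mertk and 1.46 times as much Adgre1. The sign of Adgre1 turned without library 1. The part of gene span in these values was not tested. Its ligand Cx3cl1 averaged 17.4 ± 4.63 CPM over the wild-type libraries and 22.2 ± 6.84 CPM over those of Tnc-/- (SD, n = 3 and 4; log2 fold change 0.35, SE 0.30; edgeR, adjusted p = 0.405).

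Mertk, a receptor tyrosine kinase by which macrophages take up apoptotic cells, was at 35.4, 59.3 and 45.2 CPM in wild type and at 47.9, 43.04, 38.3 and 40.6 CPM in Tnc-/-. Here wild-type library 1 was the lowest of all 7 and library 2 the highest, and all 4 Tnc-/- libraries fell inside the wild-type range. Its log2 fold change was -0.13 (SE 0.18; edgeR, adjusted p = 0.611), against 0.26 (SE 0.18) without wild-type libraries 2 and 3. Its bridging ligands were Gas6, averaging 206 ± 38.4 CPM over the wild-type libraries and 252 ± 47.1 CPM over those of Tnc-/- (SD, n = 3 and 4; log2 fold change 0.29, SE 0.19, adjusted p = 0.283), and Pros1, at 100.1 ± 15.5 and 78.8 ± 7.30 CPM (log2 fold change -0.35, SE 0.14, adjusted p = 0.0968). Pros1 was called under DESeq2 with Benjamini-Hochberg adjustment and with library totals in edgeR, and Gas6 without wild-type library 1.

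Fcgr1 and Fcgr3 encode activating receptors for IgG, the first of high and the second of low affinity. Mouse Fcgr3 and Fcgr2b, the inhibitory receptor, have nearly the same extracellular part, which matters for counting because a read inside a shared run fits either gene. The longest run of identical bases between the longest open reading frames of their GENCODE M21 transcripts is 129 bases, at positions 263 to 391 of the 804 coding bases of Fcgr3, counted from the start codon. It is shown because reads within it cannot be assigned.

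Fcgr3 and Fcgr2b, shared coding run: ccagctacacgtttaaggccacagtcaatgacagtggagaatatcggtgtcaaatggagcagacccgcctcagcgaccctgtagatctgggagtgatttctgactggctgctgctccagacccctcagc

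Of the 50-base windows of the Fcgr3 coding sequence, 22.0% occur in Fcgr2b and 0 in Fcgr4, and none of those of Fcgr1 occurs in Fcgr2b, Fcgr3 or Fcgr4. Counts of Fcgr3 from those windows are therefore uncertain. Those of Fcgr2b are uncertain too, but its share of windows was not computed. Fcgr1 shares no such window with these 3 paralogs.

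Fcgr3 was at 68.3, 43.8 and 36.6 CPM in wild type and at 77.7, 64.7, 73.4 and 68.8 CPM in Tnc-/-. Tnc-/- library 2 lay below wild-type library 1, and the other 3 above it. Its log2 fold change was 0.52 (SE 0.21; edgeR, adjusted p = 0.0897), or 0.92 (SE 0.15; 1.2e-04) without wild-type library 1 and 0.054 (SE 0.16) without wild-type libraries 2 and 3. Fcgr2b, its near copy, averaged 41.3 ± 16.0 CPM over the wild-type libraries and 54.3 ± 1.83 CPM over those of Tnc-/- (SD, n = 3 and 4; log2 fold change 0.39, SE 0.22, adjusted p = 0.217), and was called without wild-type library 1.

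Fcgr3 is also carried by neutrophils and NK cells. The 8 neutrophil markers summed to 5344, 2597 and 2865 CPM in wild type and to 6007 to 10150 CPM in Tnc-/-, with none at 0. Of the 8, 7 were called higher (10.3% of all genes), and 1 when any single one of wild-type 2, wild-type 3, Tnc-/- 1 and Tnc-/- 3 was left out. The 5 NK cell markers summed to 15.3 to 19.1 and 16.9 to 30.4 CPM, with none called (edgeR; 1 at an unadjusted p under 0.05) and Klrb1c and Gzma each at 0 in 1 wild-type library. Their part in the level of Fcgr3 was not tested.

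Fcgr1 was at 14.6, 10.8 and 3.08 CPM in wild type and at 14.4, 14.9, 10.4 and 14.8 CPM in Tnc-/-. Wild-type library 3, with 51 counts, lay far below every other library and gave the gene the widest spread of the 10. For Fcgr1 the log2 fold change was 0.52 (SE 0.46; edgeR, adjusted p = 0.420). It was 0.11 (SE 0.27; adjusted p = 0.816) without wild-type library 3 and 1.08 (SE 0.40; adjusted p = 0.0294) without library 1. There were 21.3, 24.6 and 8.42 Fcgr1 counts per 100 Fcgr3 counts in wild type and 18.5, 23.0, 14.2 and 21.4 in Tnc-/-. The log2 ratio differed by 0.21 (exact two-sided permutation test, p = 0.743), and by -0.27 without wild-type library 3. Fcgr4, another activating receptor, averaged 9.21 ± 2.57 CPM over the wild-type libraries and 8.37 ± 1.5 CPM over those of Tnc-/- (SD, n = 3 and 4; log2 fold change -0.14, SE 0.32, adjusted p = 0.772).

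Counts of the other members were also set against Csf1r in the same library, as a description made after the values were seen. Adgre1 had 34.5, 39.8 and 36.6 counts per 100 Csf1r counts in wild type and 28.1, 24.9, 28.4 and 28.5 in Tnc-/-. Fcgr3 had 27.8, 28.1 and 24.7 in wild type and 37.3, 33.1, 36.1 and 31.02 in Tnc-/-. In both genes wild-type library 1 sat with the other wild-type libraries on this scale, unlike in CPM, and the groups did not overlap. Cx3cr1 had 11.1, 22.6 and 21.04 in wild type and 10.8, 9.08, 7.65 and 7.37 in Tnc-/-, so wild-type library 1 lay next to Tnc-/- library 1. Over all tested genes, 14.5% were lower in Tnc-/- without overlap on this scale, as Adgre1 and Cx3cr1 were, and 11.3% higher, as Fcgr3 was. The other 6 members overlapped.

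**Figure D3:**
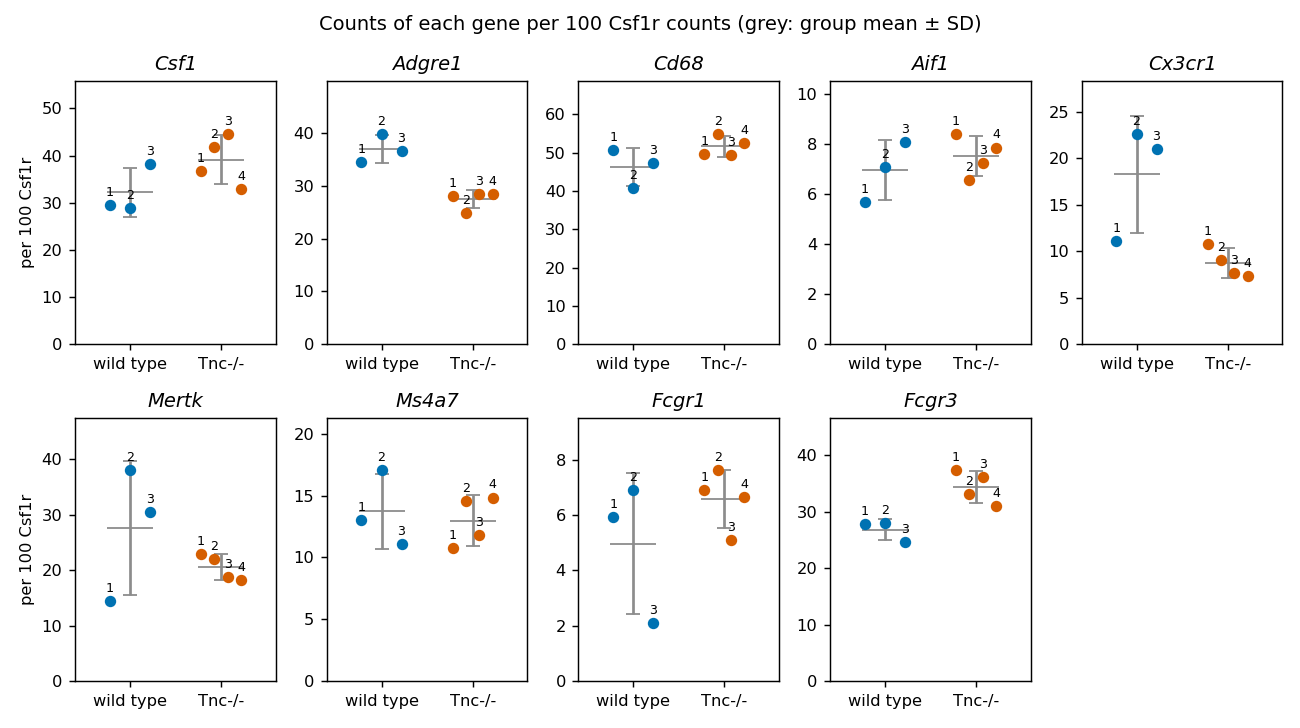
Counts of 9 genes per 100 Csf1r counts (vertical axes, from 0) in the 3 wild-type (blue) and 4 Tnc-/- libraries (orange), numbered by replicate, with group means and SD in grey. Adgre1 lies at 34.5 to 39.8 in wild type and at 24.9 to 28.5 in Tnc-/-, and Fcgr3 at 24.7 to 28.1 and 31.02 to 37.3.

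Levels of different genes were compared per length, in CPM per kb of exon in GENCODE M21, over all 7 libraries. Cd68 was the most abundant, at 78.0 ± 18.3 CPM per kb (SD, n = 7), and lay above every other member in every library. Fcgr3 (35.7 ± 8.96) and Csf1r (34.1 ± 6.02) followed, in an order that turned with genotype. Csf1r was the higher in all 3 wild-type libraries (31.7 ± 9.4 against 28.5 ± 9.6, SD, n = 3) and Fcgr3 in all 4 Tnc-/- libraries (41.0 ± 3.23 against 35.9 ± 1.91, SD, n = 4), with ranges that overlapped in both genotypes. Csf1r lay above Adgre1 (18.9 ± 3.53) in all 7 libraries, and Adgre1 above Csf1 (13.4 ± 2.93) in 6. Over all 7 libraries Mertk (10.2 ± 1.80) and Aif1 (9.29 ± 1.66) could not be ordered beyond their spread. Nor could Ms4a7 (5.87 ± 1.30), Cx3cr1 (5.26 ± 1.72) and Fcgr1 (4.57 ± 1.67). In Tnc-/- Ms4a7 lay above Cx3cr1 without overlap (6.06 ± 1.07 against 4.0 ± 0.69, SD, n = 4). In wild type these 2 overlapped (5.63 ± 1.78 against 6.94 ± 0.89, SD, n = 3). Cx3cr1 was above Fcgr1 in wild type (6.94 ± 0.89 against 3.65 ± 2.26, SD, n = 3) and below it in Tnc-/- (4.0 ± 0.69 against 5.25 ± 0.83, SD, n = 4).

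The genes whose log2 CPM profile over the 7 libraries was most like that of Csf1r were sought among 12353 genes outside the list with a mean of at least 5 CPM, by the root mean square difference after centring each gene. The nearest 5 were Cd74 (0.0352 log2 units), D6Wsu163e (0.0511), Cyp51 (0.0513), Ctsa (0.0522) and Prdm4 (0.0533), where the median gene was at 0.328. Cd74, the invariant chain of MHC class II, was at 365, 229 and 227 CPM in wild type and at 299 to 348 CPM in Tnc-/-, so it too had Tnc-/- between wild-type library 1 and the others. Of the members, Cd68 was nearest to Csf1r at 0.125, followed by Aif1 (0.176) and Fcgr3 (0.196), and Mertk (0.431), Fcgr1 (0.497) and Cx3cr1 (0.591) lay farther off than the median gene.

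Around the members, 8 lists of pathway genes held 79 tested genes, of which 15 were called higher and 1 lower in Tnc-/-. The called share was 20.3%, against 29.0% of all genes tested (10.3% higher and 18.7% lower). As with the members, the libraries decided the count. Without wild-type library 1 it was 53, or 67.1%, near the 64.2% of all genes in that fit. It was 4 (5.06%, all genes 15.7%) without wild-type library 2 and 0 (all genes 12.3%; 18 at an unadjusted p under 0.05, edgeR) without library 3. Without wild-type libraries 2 and 3 together it was 3, all lower (3.80%, all genes 4.45%). Without Tnc-/- library 1, 2, 3 or 4 it was 3, 7, 2 or 6, where 14.5 to 17.6% of all genes were called. With the background covariate it was 0 (all genes 2.28%), with 17 of the 79 at an unadjusted p under 0.05. Limma voom gave 3 (all genes 5.64%), and the fit with the replicate number as a block gave 8, all higher (10.1%, all genes 10.9%). For the fits with 18 and 17 genes at an unadjusted p under 0.05, the share of all genes at that p was not computed.

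The list of CSF1R signalling genes had 7 of 12 genes called, all higher, where 10.3% of all genes were called higher. Its median log2 fold change was 0.49 (all genes tested, -8.9e-04). Its calls numbered 10 without wild-type library 1, 2 without library 2 and 0 without library 3 (edgeR), and 1, 4, 2 and 4 without Tnc-/- libraries 1 to 4. There were 0 without wild-type libraries 2 and 3 and with the background covariate. Erythroid markers, which come with marrow or blood, were higher as well. Of 5 tested, 4 were called higher (10.3% of all genes), and their median was 1.43. All 6 summed to 468 to 1007 CPM in wild type and to 1315 to 2578 CPM in Tnc-/-, with Alas2 at 0 in all libraries. Their part in the lists was not tested. Pik3cd, the phosphoinositide 3-kinase subunit of leukocytes, rose from 47.1 ± 12.1 CPM (SD, n = 3) to 89.4 ± 12.3 CPM (SD, n = 4; log2 fold change 0.93, SE 0.19; edgeR, adjusted p = 0.0105). Fes, a myeloid tyrosine kinase, rose from 44.1 ± 19.1 to 99.6 ± 18.4 CPM (1.17, SE 0.28; adjusted p = 0.0161). Grb2, the adaptor that links CSF1R to Ras, rose from 80.4 ± 15.3 to 122 ± 5.0 CPM (0.60, SE 0.15; adjusted p = 0.0179). Of the 7 fits that leave out 1 library, Pik3cd was called in 6, Fes in 4 and Grb2 in 3.

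Among the partners of the Fc receptors 3 of 6 were called, all higher (10.3% of all genes were called higher), with a median of 0.61. Syk, the kinase below Fc receptors, rose from 70.7 ± 28.7 to 158 ± 33.9 CPM (log2 fold change 1.15, SE 0.28; edgeR, adjusted p = 0.0184). The Src family kinase Fgr rose from 23.6 ± 13.1 to 58.2 ± 12.4 CPM (1.30, SE 0.35; adjusted p = 0.0251). Fcer1g, the signalling chain that carries Fcgr1 and Fcgr3 to the surface, rose from 67.4 ± 24.6 to 119 ± 14.7 CPM (0.82, SE 0.23; adjusted p = 0.0282). Syk, Fgr, Fcer1g, Fes and Pik3cd are expressed in neutrophils as well, whose markers had a median of 1.18 with 7 of 8 called higher. Of the 7 fits that leave out 1 library, Syk and Fgr were each called in 3 and Fcer1g in 1. Without wild-type libraries 2 and 3 the neutrophil median was 0.59 and that of the Fc receptor partners 0.16. With the background covariate these medians were 0.29 and -0.061. The part of neutrophils in these lists was not tested.

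Of the macrophage transcription factors 2 of 11 were called, both higher (10.3% of all genes were called higher). Spi1, which encodes PU.1, the factor that sets up the myeloid programme, rose from 65.9 ± 23.2 to 114 ± 11.05 CPM (log2 fold change 0.79, SE 0.22; edgeR, adjusted p = 0.0283). Irf8, which directs monocyte development, rose from 41.6 ± 16.5 to 78.04 ± 17.4 CPM (0.91, SE 0.27; adjusted p = 0.0355). Of the 7 fits that leave out 1 library, each was called in 1, that without wild-type library 1. The median of the list was 0.37, and 0.16 without wild-type libraries 2 and 3. Maf and Zeb2, chosen here after their values were seen, were lower with all 7 libraries but not called. Their log2 fold changes were -0.25 (SE 0.15, edgeR, adjusted p = 0.245) and -0.46 (SE 0.15, adjusted p = 0.0521). Zeb2 was called lower under DESeq2 with Benjamini-Hochberg adjustment and, in edgeR, with DESeq2's size factors, library totals and upper quartile scaling.

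Because Spi1 was called with all 7 libraries, the members' promoters were read for the letters GAGGAA, a core that PU.1 binds, or TTCCTC on the other strand. The RefSeq table of promoters (GRCm38.p6, 250 bases before to 50 after the start) held 8 of the 10 genes; Csf1r and Adgre1 were not matched. The letters were found in 5 of the 8, Cd68, Aif1, Ms4a7, Fcgr1 and Fcgr3, and in 31.3% of the 27025 genes with a promoter. Windows of 30 bases before the start are shown with the letters in capitals for the members that hold them there. They lie on the minus strand at chr11:69666378-69666407 for Cd68, chr17:35176053-35176082 for Aif1, chr3:96294007-96294036 for Fcgr1 and chr1:171059404-171059433 for Fcgr3.
Cd68: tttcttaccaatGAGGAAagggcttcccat
Aif1: tagccgtggtgataggcacccagTTCCTCc
Fcgr1: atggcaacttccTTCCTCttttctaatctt
Fcgr3: ggttaagcaagagagtccatttccTTCCTC

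The letters begin 225 bases before the start in Cd68, 55 in Fcgr1, 7 in Aif1 and 6 in Fcgr3. They were not in the windows of Csf1, Cx3cr1 or Mertk. A match of letters is a description of these windows and not a binding site.

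Of 19 tested genes in the list of other macrophage genes, 1 was called, against 29.0% of all genes. This was Cd14, a co-receptor for bacterial lipopolysaccharide, rising from 16.6 ± 2.63 to 24.8 ± 3.16 CPM (log2 fold change 0.58, SE 0.19, edgeR, adjusted p = 0.047). That call held in 3 of the 19 alternatives. The list's median was 0.39, but -0.16 without wild-type libraries 2 and 3, and Itgam was listed at 0 in all 7 libraries. So were Scx, the erythroid marker Alas2 and the osteoclast marker Acp5. Whether such a 0 reflects the expression or the counting was not tested. In the list around Mertk 2 of 11 were called higher (10.3% of all genes). They were the scavenger receptors Lrp1, from 499.7 ± 92.4 to 866 ± 144 CPM (0.79, SE 0.20, edgeR, adjusted p = 0.0207), and Stab1, from 110 ± 22.6 to 171 ± 18.6 CPM (0.65, SE 0.17, adjusted p = 0.0228). That list's median was 0.16, but -0.045 with the replicate number as a block, -0.06 with library totals and -0.058 without Tnc-/- library 4. Lrp1 was called in 11 of the 19 alternatives and Stab1 in 9. Of 10 lysosome genes 1 was called, against 29.0% of all genes. This was Lamp2, a lysosomal membrane protein, which fell from 372 ± 83.1 to 255 ± 8.90 CPM (-0.54, SE 0.17, edgeR, adjusted p = 0.0446), a call that held in 8 of the 19. The lysosome median was 0.17, but -0.23 without wild-type libraries 2 and 3 and -0.44 with the background covariate. None was called among the 3 genes of fractalkine and its proteases (median -0.065; at an unadjusted p under 0.05, 0) or the 7 tested Ms4a genes (median -0.05; 0).

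**Figure D4:**
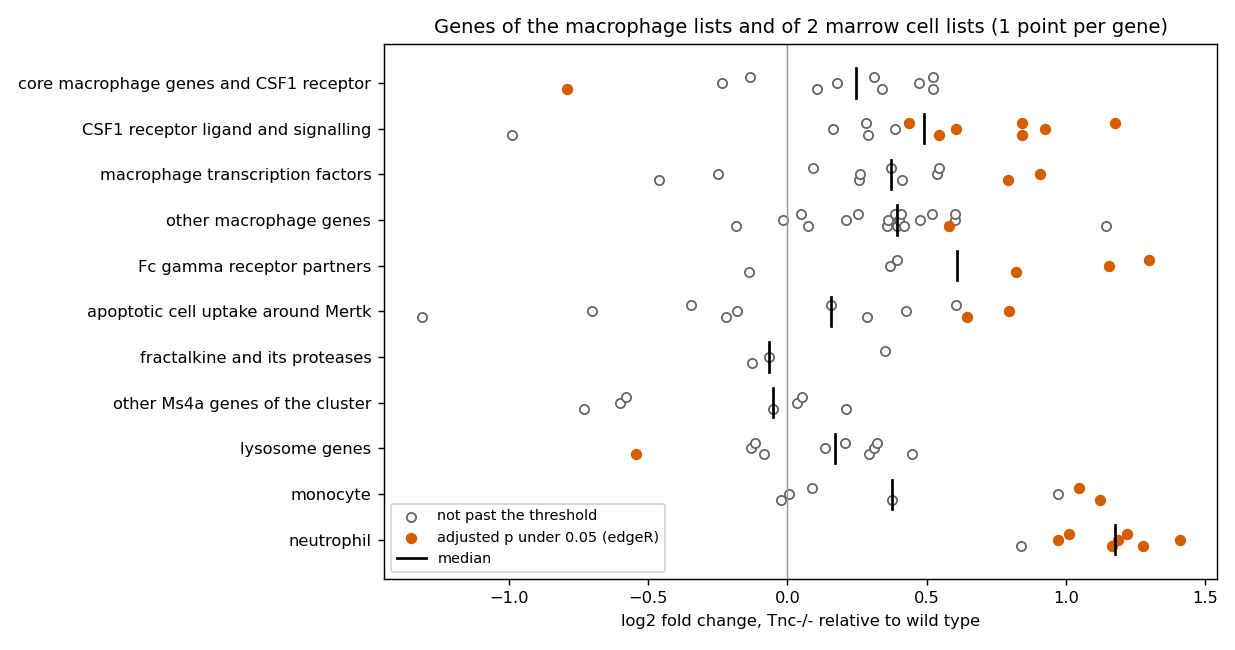
Log2 fold change of each tested gene, Tnc-/- relative to wild type (horizontal axis), for the 10 members, the 8 pathway lists and the neutrophil and monocyte markers. Filled points have an edgeR adjusted p under 0.05 and bars are medians. With all 7 libraries, 7 of 8 neutrophil markers and 7 of 12 CSF1R signalling genes are filled, where 10.3% of all genes were called higher.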

How the data were processed

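RNA sequencing libraries of 7 shoulder joints (3 wild type, 4 Tnc-/-) were compared, grouped by title. Each library has its own file, in which the authors deposited unnormalised read counts by gene. Per the submitters' processing notes, FastQC 0.11.9, HISAT2 2.2.1, HTSeq 2.0.2, DESeq2 1.38.3 and the build GRCm39 were used; annotation and strand setting are not given in the sources used here. The 5 rows of the Tnc-/- files that name no gene held 30.1 to 32.7% of reads and were left out. No column was left unmapped (0).

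The test was that of edgeR 4.0.16 (R 4.3.3): filterByExpr, TMM, robust quasi-likelihood F test, Benjamini-Hochberg threshold 0.05, SE as the log2 fold change over the square root of F. The script was tested on simulated data. Alternatives used DESeq2 1.42.0 and limma 3.58.1. The background covariate was log2 summed CPM of 2026 smell and pheromone receptor genes, which did not overlap between the genotypes. Ratios used 0.5 added counts and permutations over 35 splits, and profile distances log2 (CPM + 1). GENCODE M21 (GRCm38) gave lengths, spans and overlaps only.

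The members, lists, tests and naming rules were chosen with earlier results of these data known. Named genes are the members, Il34, Cx3cl1, Gas6, Pros1, Fcgr2b, Fcgr4, up to 3 called genes of smallest p per pathway list and the 5 nearest to Csf1r; Maf, Zeb2 and the genes named from cell type lists were chosen after their values were seen.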

Additional observations from a re-analysis of the deposited data

Results flagged for a closer look

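The CPM of the 10 genes and 3 ratios were screened in Tnc-/- for a single distant value; 1 of these 13 measures had one, and chance alone gives about 1 in 20. Fcgr1 was at 10.4 CPM in Tnc-/- library 3, against 14.4 to 14.9 CPM in the other Tnc-/- libraries. The gap to the nearest of them exceeded the 95% critical value of Dixon's test for 4 libraries.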

How the results depend on the processing

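Cx3cr1 kept its direction in 19 alternatives and was past the threshold in 13. The number of members called went from 1 to 0 with DESeq2 and Bonferroni adjustment, with the background covariate, with the replicate block and without wild-type libraries 2 and 3, and ran from 0 to 6 when single libraries were left out. The number of pathway genes called (alternatives added after the data were seen) went from 16 to 0 with DESeq2 and Bonferroni adjustment, 3 with limma voom, 0 with the background covariate, 8 with the replicate block and 3 without wild-type libraries 2 and 3, and ran from 0 to 53 when single libraries were left out. Signs turned as follows, the cause not being tested. With the background covariate the log2 fold change was -0.025 for Csf1, -0.45 for Csf1r, -0.50 for Cd68, 0.47 for Mertk, -0.38 for Ms4a7, -0.26 for Fcgr1 and -0.13 for Fcgr3. Without wild-type libraries 2 and 3 it was -0.25 for Csf1r, -0.23 for Cd68, 0.26 for Mertk, -0.26 for Ms4a7 and -0.10 for Fcgr1, and the log2 ratio of Fcgr1 to Fcgr3 was -0.17. Library totals gave -0.029 for Csf1r and -0.11 for Ms4a7. When single libraries were left out, the log2 fold change ran from -0.36 to 0.065 for Adgre1, from -0.22 to 0.062 for Mertk and from -0.12 to 0.42 for Ms4a7, and the ratio of Fcgr1 to Fcgr3 ran from -0.27 to 0.50. The ratio of Csf1 to Csf1r ran from 0.21 to 0.41 over all its alternatives and that of Cd68 to Csf1r from 0.022 to 0.23. Same-numbered libraries did not deviate together (correlations across genes 0.0076, 0.117 and -2.4e-04), so the block rests on the numbers alone. Fcgr1 rested on 51 to 391 counts per library, and its coefficient of variation in wild type was 61.8%.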

Other observations

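Osteoclasts form from CSF1R-bearing precursors. Of 7 tested osteoclast markers (Acp5 was listed at 0 in all libraries) none had a log2 fold change above 0, the median was -0.40, and 1 was called, Calcr, the calcitonin receptor, where 18.7% of all genes were called lower. Calcr was at 1.76, 5.35 and 7.36 CPM in wild type and at 0.885 to 1.46 CPM in Tnc-/-, so its difference lay mainly in wild-type libraries 2 and 3. Dcstamp, a fusion protein of osteoclast precursors named here after its values were seen, did not show that split, at 9.49, 9.11 and 9.53 CPM in wild type and 5.77 to 7.79 CPM in Tnc-/- (log2 fold change -0.47, SE 0.28; edgeR, adjusted p = 0.23). Of the 7, 4 were lower without overlap (Calcr, Dcstamp, Ocstamp and Oscar; 17.4% of all genes). The summed osteoclast markers overlapped between the groups, at 1034 to 1443 CPM and 1035 to 1302 CPM, but Ctsk and Mmp9, at means of 633 and 459 CPM, made up most of that sum. Of the monocyte markers Ly6c2 and Chil3 were called higher (2 of 7, where 10.3% of all genes were called higher and 29.0% in either direction), and 0 of 7 was called without wild-type libraries 2 and 3, together or singly, or without Tnc-/- replicate 1 or replicate 3, while the 6 dendritic cell markers and the 5 mast cell markers held no call (edgeR; 2 and 1 at an unadjusted p under 0.05).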
